A study of Mus musculus with 6 samples.

Results

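Ctbp2 knock-down was compared with its control in untreated mouse F9 cells, that is, library shCtbp2_UT with library shGFP_UT, across all genes. These are 2 of the 6 libraries of the study. F9 is a teratocarcinoma line that grows as undifferentiated stem cells and, under retinoic acid (RA), differentiates towards endoderm. Each library came from cells that carry a short hairpin RNA: shGFP (the control hairpin), shCtbp2 (against Ctbp2) or shRxr (against a retinoid X receptor). All grew on gelatin-coated plastic in medium with charcoal-stripped serum, so the untreated cells had no added RA, and the other 3 libraries (shGFP_RA, shCtbp2_RA, shRxr_RA) had 1 µM all-trans RA for the last 48 hours. There was 1 library per group. The labels name no replicate culture and do not say whether a line is 1 clone or a pool, and the sources used here do not give the hairpin sequences. Of the 25904 genes in the deposited table, 23886 had a read in a library and 12332 averaged at least 20 normalised reads (reads per 10000000 counted in genes) over the 6 libraries. These 12332 genes were compared. The genes on either side of that minimum had means of 20.0084 and 19.9953.

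CtBP2 is a corepressor, a protein that does not bind DNA itself but is brought to it by factors such as the Zeb proteins, and that carries histone deacetylases, methyltransferases and the demethylase Kdm1a with it. It binds NAD(H), and its loss is known in other cells for raising epithelial and cell death genes. The mouse Ctbp2 locus also encodes Ribeye, a protein of synaptic ribbons, from another start site, and reads counted per gene do not tell the products apart.

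The hairpin's target was lower in the library that carries it. Ctbp2 (ENSMUSG00000030970, mm9 chromosome 7, 140179246 to 140316037) had 1811 normalised reads in shGFP_UT against 210.1 in shCtbp2_UT and 1632 in shRxr_UT. The library with the Ctbp2 hairpin was the low one, and the other untreated libraries lay close to each other. Between shCtbp2_UT and shGFP_UT the level was 8.62-fold lower (95% counting interval 7.57 to 9.85). Such an interval is the exact binomial (Clopper-Pearson) interval of the reads and covers counting error only, since 1 library a side gives no replicate check. The paralog Ctbp1, which encodes the other CtBP protein, stood at 1141, 1127 and 1192 in the same order of libraries, a 1.01-fold difference (0.94 to 1.09).

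A test among untreated cells was possible only by setting shCtbp2_UT against shGFP_UT and shRxr_UT together, with limma and Benjamini-Hochberg adjustment over all 12332 genes. Its spread is that between the latter libraries, so its p-values measure differences between lines with 1 residual degree of freedom and 5.85 prior degrees of freedom, and not replicate cultures of the knock-down. "Rose" and "fell" are kept here for genes that passed this test at an adjusted p under 0.05, and "higher" and "lower" give the size of shCtbp2_UT against shGFP_UT. By limma, on its log2 scale, Ctbp2 fell by 2.97 (SE 0.12, adjusted p 0.000593).

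The depth was 12416100 reads in genes for shGFP_UT and 12089782 for shCtbp2_UT, within a range of 9955808 to 13322506 over the 6 libraries. Summed over 9 markers of F9 stem cells, the level was 57533 in shGFP_UT, 56607 in shCtbp2_UT and 58276 in shRxr_UT. Dcn and Postn, which mark fibroblasts, had no read in the untreated libraries, and the 6 fibroblast markers summed to 106, 143 and 52.7, most of it Thy1. Ptprc, carried by blood cells, was at 0, 0 and 0.84, and Hba-a1 at 0, while the third blood marker, Laptm5, stood at 1472, 1461 and 1554. The 10 endoderm markers summed to 3454, 4938 and 3078. Among them the basement membrane collagen Col4a1 stood at 1872, 3604 and 1990. Lama1 stood at 1248, 1062 and 830, Dab2 at 104, 74.4 and 63.6 and Gata6 at 29.8, 11.6 and 27.6. Gata4, Sox17, Foxa2 and Thbd were also lower in shCtbp2_UT than in shGFP_UT, and Afp and Ttr were at or below 0.81. Mitochondrial transcripts made up 1.43% to 1.45% of the reads in the untreated libraries.

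Of the 12332 genes, 172 (1.39%) were at least 2-fold higher in shCtbp2_UT and 288 (2.34%) at least 2-fold lower, on the scale log2(normalised reads + 10), which understates the change of low genes. At least 4-fold were 18 and 8 genes. The median log2 difference over all genes was -0.03, and the differences ran from -3.05, that of Ctbp2, to 2.73. The genes just inside the 2-fold limits stood at 1.0008 and -1.0003. Of all genes, 5512 lay above 0 and 6813 (55.2%) below, and 3.73% were 2-fold apart in either direction. Both sets had lower median levels than all genes: averaged over shGFP_UT and shCtbp2_UT, the median was 97.5 for the higher, 52.3 for the lower and 318 for all genes compared. Limma called 250 genes raised (2.03%) and 293 lowered (2.38%). These counts moved with the settings. With a pseudocount of 50 in place of 10, the size rule gave 68 higher and 45 lower. With libraries scaled to equal upper quartiles limma gave 61 raised and 64 lowered, and in a fit over all 6 libraries with line and treatment as terms 13 raised (0.105%) and 5 lowered (0.0405%). Without a minimum level no gene passed limma's adjusted threshold, and 3700 had an unadjusted p under 0.05. Across the untreated-library fits, leaving aside the one without a minimum level, 51 genes were raised and 57 lowered in every one.

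**Figure D1:**
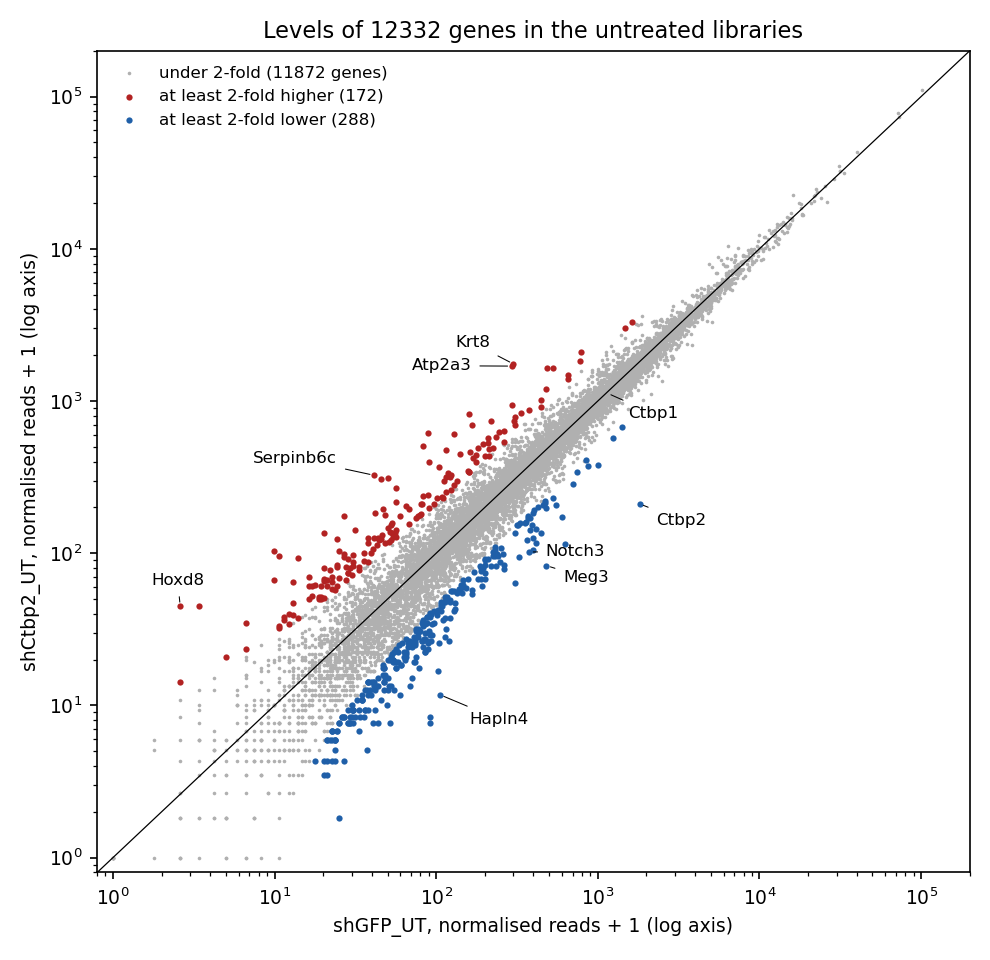
Level of each of the 12332 genes in shGFP_UT (x axis) and shCtbp2_UT (y axis), in normalised reads plus 1 on log axes, with genes at least 2-fold higher in red and at least 2-fold lower in blue. Most genes lie along the diagonal, Ctbp2 lies far below it, and Krt8 and Atp2a3 lie above it, at 1751 and 1695 normalised reads in shCtbp2_UT.

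The genes that stood highest against the control included an intermediate filament protein, a calcium pump, a protease inhibitor and a metabolic enzyme. Krt8, the type II keratin of simple epithelia (ENSMUSG00000049382, mm9 chromosome 15, 101827142 to 101834773), had 299.6 normalised reads in shGFP_UT against 1751 in shCtbp2_UT and 304 in shRxr_UT. The shCtbp2_UT value lay far above the other untreated ones, which were almost equal. It was 5.84-fold higher than in shGFP_UT (5.23 to 6.54), and limma gave a rise of 2.50 in log2 (SE 0.12, adjusted p 0.001, and up to 0.074 in the alternative fits that keep a minimum level, the fits meant by this term from here on). The alternative fits include the one over all 6 libraries, whose line term takes untreated and RA libraries together and so measures another difference. The highest value for Krt8, and that for Notch3 below, came from that fit, and both genes passed in the untreated-library fits with a minimum level. Atp2a3, which encodes the calcium pump SERCA3 (ENSMUSG00000020788, chromosome 11, 72774671 to 72806546), stood at 292, 1695 and 346. It was 5.80-fold higher (5.18 to 6.5), and it rose in the limma fit by 2.38 (SE 0.14, adjusted p 0.00256). Serpinb6c, an intracellular serine protease inhibitor (ENSMUSG00000052180, chromosome 13, 33971685 to 33997577), stood at 40.3, 324 and 25.9, an 8.05-fold difference (5.99 to 11), the largest of all genes on the log2 scale used (2.73). Capn5, a calcium-dependent protease (ENSMUSG00000035547, chromosome 7, 105270069 to 105326784), stood at 87.8, 618 and 93.7. In each of these genes shCtbp2_UT was the high library, and shRxr_UT lay near shGFP_UT. Genes here and below were picked with the difference between shCtbp2_UT and shGFP_UT known, so that order is no independent support.

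**Figure D2:**
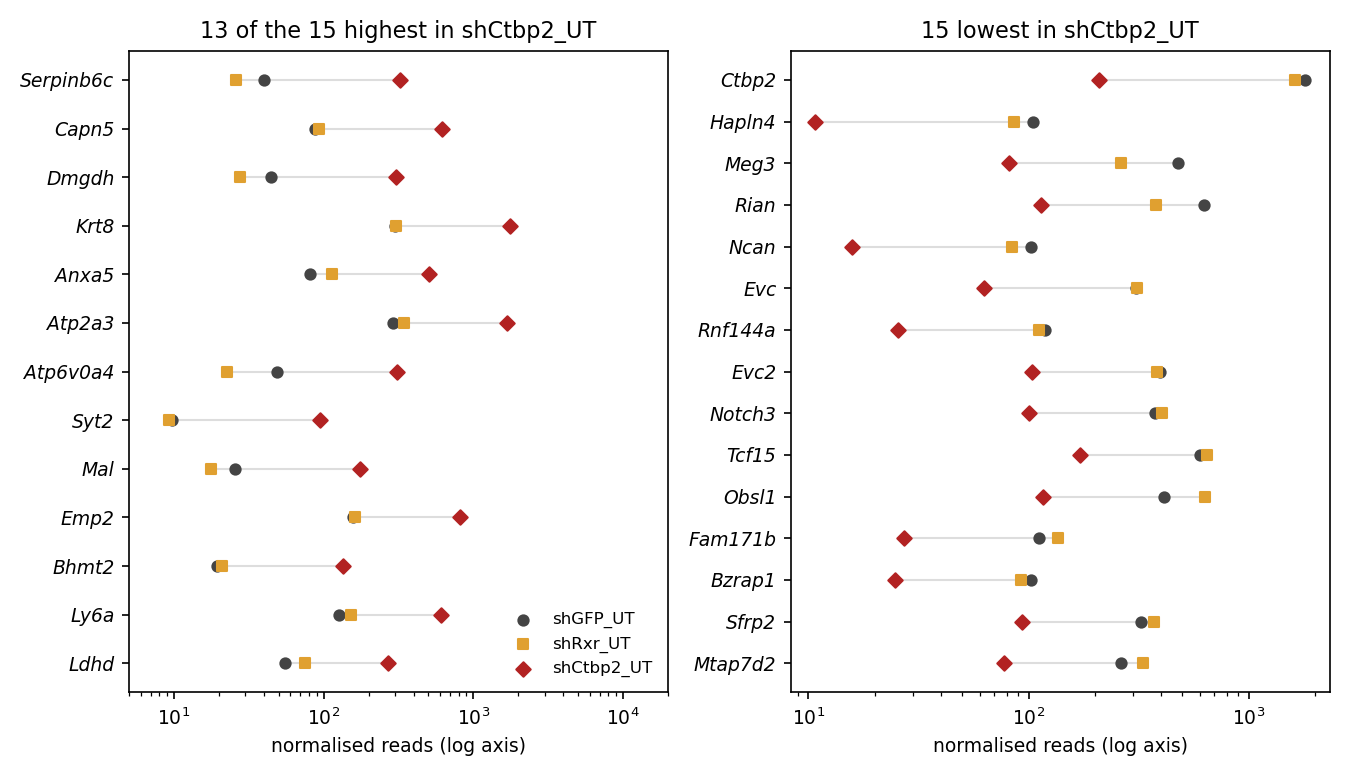
Normalised reads (log axis) in the 3 untreated libraries for 13 of the 15 highest and for the 15 lowest genes by log2 difference, of those averaging at least 50 in shGFP_UT and shCtbp2_UT, 1 point per library. For the upper set shCtbp2_UT lies to the right of both other libraries, and for the lower set to their left. Its side of shGFP_UT follows from how the genes were picked. For Meg3 and Rian shRxr_UT lies well below shGFP_UT, on the side of shCtbp2_UT.

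The keratins differed among themselves. Of 6 tested, Krt8, Krt17 and Krt42 were at least 2-fold higher and rose, and none was lower or fell (median log2 difference 0.77, against -0.03 over all genes). Here and in later lists, such counts stand against 1.39% higher and 2.34% lower of all genes, and 2.03% raised and 2.38% lowered by limma. Krt17, a type I keratin of basal and stressed epithelia (ENSMUSG00000035557, chromosome 11, 100117531 to 100122343), stood at 167, 693 and 165 in shGFP_UT, shCtbp2_UT and shRxr_UT, and its neighbour Krt42 at 211, 485 and 232. They were 4.16-fold (3.57 to 4.86) and 2.30-fold (1.98 to 2.67) higher. Krt18, which pairs with Krt8 in filaments, did not pass, at 68.5, 60.4 and 45.2 (log2 difference -0.16), nor did Krt19 (25.0, 35.6 and 20.9) or Krt10 (35.4, 30.6 and 29.3). Keratins and their pseudogenes share sequence, and the sources used here do not say how shared reads were counted.

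Among 28 genes of cadherins, claudins and other epithelial junctions, 2 were at least 2-fold higher and none lower (median 0.24), and 7 rose and none fell. Dsp, which links keratin filaments to desmosomes, stood at 783, 2106 and 973, a 2.69-fold difference (2.50 to 2.90), with the knock-down library above both others. Esrp1, an epithelial splicing factor, stood at 176, 438 and 88.7 (2.50-fold higher, 2.13 to 2.94). The other 5 that rose, Cdh1, Jup, Dsg2, Spint1 and Spint2, were under 2-fold and chosen for mention with their values in view. Cdh1, the cadherin of epithelial adherens junctions, was at 5782, 8413 and 5737, a 1.46-fold difference (1.41 to 1.5, limma adjusted p 0.025). The desmosomal cadherin Dsg2 was at 1771, 3167 and 1617 (1.79-fold, 1.70 to 1.89). Not all junction genes stood higher: Cldn6 was at 197, 99.3 and 104, and Epcam at 627, 725 and 523, neither of which passed. Of 10 mesenchymal genes, Vim (1620, 3323 and 2056) and Fn1 (5115, 7568 and 5203) rose and none fell, so the epithelial and the mesenchymal list each held genes that rose. Of 15 epithelial and cell death genes described elsewhere as repressed by CtBP, Krt8, Cdh1 and Jup rose and Perp fell, and the list's median was -0.16. Perp, a p53 target of desmosomes and cell death, stood at 739, 343 and 571. The other death genes of that list did not pass, among them Bax at 2232, 1919 and 2214.

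The promoter of Krt8 is shown because it holds the E-box CACCTG, the site that Zeb proteins, DNA-binding partners of CtBP, are known to bind. The window is the 250 bases before the start of transcription in the RefSeq promoter table (GRCm38.p6, chr15:102004343-102004592, minus strand), 5′ to 3′, with CACCTG or its reverse complement CAGGTG in capitals. The match lies 111 bases before the start.
Krt8: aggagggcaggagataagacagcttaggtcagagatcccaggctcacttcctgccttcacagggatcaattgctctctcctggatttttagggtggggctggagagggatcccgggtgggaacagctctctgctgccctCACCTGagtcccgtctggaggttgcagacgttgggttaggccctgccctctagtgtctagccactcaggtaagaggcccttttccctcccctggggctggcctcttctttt
Among genes at least 2-fold higher, 123 of 172 matched the RefSeq table by symbol, with 180 promoters, and 25.6% of these promoters held CACCTG on either strand. The share was 18.5% of 275 promoters of genes at least 2-fold lower (207 of 288 matched) and 15.9% of 12291 promoters of all genes compared (9604 of 12332 matched). The wider E-box CANNTG, of which CACCTG is a case, was held by 68.3%, 63.6% and 57.1%. The Klf-type box CACCC, searched on both strands, was held by 70%, 63.6% and 57.8%, so its share, like those of the E-boxes, was larger in both sets than over all genes. The windows looked at for Atp2a3, Serpinb6c, Dmgdh, Meg3, Rian, Notch3 and Ctbp2 held no CACCTG on either strand. A match describes the letters in the window and is neither a bound site nor a cause.

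Clade B serpins, galectins and Ly6 antigens formed a list with many members far from the control: 5 of 11 tested were at least 2-fold higher and 1 lower (median 0.80), with 6 raised and 1 lowered by limma. Ly6a, the Sca-1 surface antigen (ENSMUSG00000075602, chromosome 15, 74825308 to 74828064), stood at 127, 610.4 and 152, a 4.80-fold difference (4.03 to 5.73). Its neighbour Ly6c1 stood at 12.1, 63.7 and 14.2 (5.27-fold higher, 3.01 to 9.87). The knock-down library was the high one in both. Galectins are secreted and cytosolic proteins that bind sugars, and they went both ways. Lgals3 stood at 486, 1645 and 345 (3.39-fold higher, 3.09 to 3.72) and Lgals9 at 66.8, 194 and 60.3 (2.91-fold higher, 2.25 to 3.78). Lgals1 stood at 308, 136 and 351 (2.27-fold lower, 1.89 to 2.75). Serpinb6c, Ly6a and Ly6c1 have close paralogs, and the sources used here do not say how reads common to them were split.

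Several of the highest genes encode membrane proteins of transport or of epithelial surfaces. Emp2, a tetraspan protein of epithelial membranes (ENSMUSG00000022505, chromosome 16, 10281842 to 10314061), stood at 158, 816 and 162 (5.17-fold higher, 4.43 to 6.05), and its relative Emp1 at 114, 477 and 113 (4.17-fold higher, 3.47 to 5.05). Mal, a lipid-raft protein of apical sorting, stood at 25.8, 175 and 17.6. In all of them shCtbp2_UT was above both other untreated libraries. Atp6v0a4, the kidney-type subunit of the V-ATPase proton pump, stood at 49.1, 312 and 22.6 (6.35-fold higher, 4.83 to 8.46). Of 19 calcium pump, store and chaperone genes, Atp2a3 and the plasma membrane pump Atp2b4 (81.3, 237 and 92.1) were at least 2-fold higher and rose. Orai2, a store-operated calcium channel, was lower without passing the test (21.8, 5.79 and 17.6). The broadly expressed SERCA2 gene Atp2a2 had a log2 difference of 0.04, and the list's median was 0.11. Syt2, a calcium sensor of vesicle fusion, stood at 9.66, 95.1 and 9.21 (9.84-fold higher, 5.42 to 19.6).

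The list of actin and contractile genes, which also holds the protease Capn5 and the creatine kinase Ckmt1, split in both directions. Of 22 tested, 4 were at least 2-fold higher and 2 lower (median 0.08), and limma called 5 raised and 2 lowered. Besides Capn5, the higher ones were Myl7, an atrial myosin light chain (30.6, 141 and 30.1), Ckmt1, the mitochondrial creatine kinase (218, 743 and 213), and Tagln2, an actin-binding protein (1464, 3003 and 1624). Flnc, the muscle filamin, stood at 394, 124 and 409 (3.17-fold lower, 2.64 to 3.84), and Des, the muscle intermediate filament protein, at 55.6, 16.5 and 60.3. Both fell, with shCtbp2_UT the low library in each. Actb and Actg1, the cytoplasmic actins, had log2 differences of -0.09 and 0.16.

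Among 29 genes of serine, choline and one-carbon metabolism, 2 adjacent genes stood out and the median was -0.04. Dmgdh, mitochondrial dimethylglycine dehydrogenase (ENSMUSG00000042102, mm9 chromosome 13, 94444388 to 94522786), stood at 44.3, 306 and 27.6, and Bhmt2, a methyltransferase that makes methionine (ENSMUSG00000042118, chromosome 13, 94425675 to 94444257), at 19.3, 134 and 20.9. They were 6.91-fold (5.19 to 9.35) and 6.93-fold (4.50 to 11.1) higher, and the annotated genes lie 131 bases apart in the deposited coordinates. Bhmt, the related betaine methyltransferase, was at 6.44, 9.10 and 10.9. Only Gcat (1009, 1474 and 935) rose beside them, and none of the 29 fell. In glycolysis and hypoxia, Hk1, the constitutive hexokinase, stood at 655, 1390 (shCtbp2_UT) and 783, and it rose, as did Ndrg1 and Pfkp. The list's median was -0.19, and 19 of 24 genes lay below 0, against 55.2% of all genes. Of 23 genes of cholesterol synthesis and uptake, 20 lay above 0, against 44.7% of all genes, with a median of 0.15. Limma called none in either direction. In the stress list Gpx2, a glutathione peroxidase of epithelia, stood at 55.6, 216 and 33.5 and rose, and Hmox1 fell, with a median of -0.00 over 24 genes. In the interferon list Ly6a rose, 16 of 17 genes did not pass, and the median was -0.05.

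On chromosome 2, Hoxd8 and Hoxd9, homeobox genes of the trunk, were near the detection limit in the control. Hoxd8 (ENSMUSG00000027102, 74542672 to 74545990) stood at 1.61, 43.8 and 6.70 and Hoxd9 (ENSMUSG00000043342, 74535737 to 74538265) at 2.42, 43.8 and 5.86. The shGFP_UT values are 2 and 3 reads, so counting error leaves the folds with wide intervals: 27.2-fold (7.17 to 231) and 18.1-fold (5.88 to 90.8). Both rose in the limma fit (adjusted p 0.032 and 0.027, and up to 0.339 and 0.103 in the alternative fits), and no other of the 19 Hox genes tested passed. The median over the Hox list was 0.00.

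Among the lowest genes was a gene pair of the primary cilium. Evc and Evc2 encode partner proteins at the base of the cilium that act downstream of Smo in hedgehog signalling. Evc (ENSMUSG00000029122, mm9 chromosome 5, 37680337 to 37728133) stood at 307, 62.9 and 312 in shGFP_UT, shCtbp2_UT and shRxr_UT, and Evc2 (ENSMUSG00000050248, 37729717 to 37816294) at 395, 103 and 384. The control and shRxr values nearly coincided, and shCtbp2_UT was far below them. Evc was 4.88-fold (3.81 to 6.33) and Evc2 3.82-fold (3.13 to 4.68) lower, and by limma they fell by 2.13 (SE 0.16, adjusted p 0.00530) and 1.82 (SE 0.14, adjusted p 0.00561) in log2. The fit over all 6 libraries called neither, with adjusted p of up to 0.102 and 0.187 over the alternative fits. At its other end Evc overlaps Crmp1 (chromosome 5, 37633319 to 37683371), which was 2.72-fold higher at 180 (shGFP_UT), 489 (shCtbp2_UT) and 217. The sources used here do not give the strand setting of the counting, so reads in the overlap cannot be told apart. Evc and Evc2 are transcribed away from each other, and their promoters are shown because the genes differed together. Windows are 250 bases before the start in the RefSeq table, GRCm38.p6, chr5:37336882-37337131 on the minus strand for Evc and chr5:37338228-37338477 on the plus strand for Evc2. Neither holds CACCTG.
Evc: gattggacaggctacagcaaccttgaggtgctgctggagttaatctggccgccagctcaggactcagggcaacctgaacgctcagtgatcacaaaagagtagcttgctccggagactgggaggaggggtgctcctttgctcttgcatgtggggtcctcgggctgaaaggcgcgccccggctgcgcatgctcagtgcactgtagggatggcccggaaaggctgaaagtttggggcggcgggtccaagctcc
Evc2: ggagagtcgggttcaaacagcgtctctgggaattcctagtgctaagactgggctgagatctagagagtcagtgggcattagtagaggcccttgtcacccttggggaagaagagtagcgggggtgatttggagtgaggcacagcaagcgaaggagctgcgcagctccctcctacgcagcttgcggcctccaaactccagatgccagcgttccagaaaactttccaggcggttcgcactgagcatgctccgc

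In the hedgehog pathway, where Smo passes the signal on when ligand relieves it from Ptch1 and Gli1 is a target, Smo stood at 863, 376 and 1051 (2.30-fold lower, 2.06 to 2.57) and Gli1 at 252, 107 and 208 (2.34-fold lower, 1.90 to 2.90). Both fell, the only ones of 13 tested, and 1 member, the ciliary receptor Gpr161, was at least 2-fold higher without passing (32.2, 76.9 and 46.9). Ptch1, also a known target, was at 832, 855 and 916, and the list's median was -0.13. Gli2 (822, 619 and 1311) did not pass, and its spread between shGFP_UT and shRxr_UT was larger than that between shGFP_UT and shCtbp2_UT.

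Notch signalling held lower members among its receptors and ligands. Notch3, a Notch receptor (ENSMUSG00000038146, mm9 chromosome 17, 32257765 to 32303825), stood at 375, 101 and 403, with shCtbp2_UT low and the others near each other. It was 3.72-fold lower (3.04 to 4.58) and fell by 1.85 (SE 0.15, adjusted p 0.00561, and up to 0.078 in the alternative fits). Of the other receptors Notch1 was at 716, 661 and 752, Notch2 at 670.1, 567 and 840, and neither passed. Of the ligands, Jag2 stood at 165, 53 and 177 (3.12-fold lower, 2.35 to 4.20) and Dll3, a divergent ligand known as an inhibitor, at 41.1, 12.4 and 51.9 (3.31-fold lower, 1.83 to 6.34). Hes6, a relative of the Notch target Hes1, stood at 113, 47.1 and 103, and Hes1 itself at 499, 557 and 490.5. In all 4 of 26 tested were at least 2-fold lower, against 2.34% of all genes, and none higher. Limma called 5 lowered, against 2.38% of all genes, and none raised, the fifth being Numbl, an endocytic adaptor. The median of the list was -0.08. Jag1, the other Jagged ligand, had a log2 difference of -0.66 and did not pass.

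The lowest gene after Ctbp2, among those that averaged at least 50 normalised reads in shGFP_UT and shCtbp2_UT, was Hapln4, a link protein that binds hyaluronan to lecticans in the matrix of the brain (ENSMUSG00000007594, mm9 chromosome 8, 72607428 to 72614761), and the next gene on the chromosome is the lectican Ncan (ENSMUSG00000002341, 72616984 to 72644772). Hapln4 stood at 105, 10.8 and 86.2 and Ncan at 102, 15.7 and 84.5, each low only in shCtbp2_UT among the untreated libraries. They were 9.74-fold (5.50 to 18.8) and 6.51-fold (4.0 to 11.2) lower, and fell by 2.34 (SE 0.24, adjusted p 0.011) and 2.0 (SE 0.23, adjusted p 0.014) on limma's log2 scale, with adjusted p of up to 0.067 and 0.057 in the alternative fits. The promoter of Ncan is shown because it holds 3 CACCTG or CAGGTG letters (in capitals) within the 250 bases before its start in the RefSeq table (GRCm38.p6, chr8:70120845-70121094, minus strand), the nearest 117 bases before the start.
Ncan: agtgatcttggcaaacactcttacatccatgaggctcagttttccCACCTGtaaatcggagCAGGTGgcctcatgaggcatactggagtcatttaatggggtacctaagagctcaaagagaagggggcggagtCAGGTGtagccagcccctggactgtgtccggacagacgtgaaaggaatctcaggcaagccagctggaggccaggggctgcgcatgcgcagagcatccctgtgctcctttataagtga
In the list of brain matrix and guidance genes, 4 of 29 tested were at least 2-fold lower, against 2.34% of all genes, and none higher (median -0.24). Limma called 4 lowered and 2 raised. Nrp2, a semaphorin coreceptor, stood at 1404, 676 and 1038 (2.08-fold lower, 1.91 to 2.26) and did not pass (adjusted p 0.051), while Plxna2, a plexin receptor (66, 23.2 and 62.8), fell. Epha4 and Vcan rose. Of 17 genes of glutamate receptors and synapses, 15 lay below 0, against 55.2% of all genes, with a median of -0.68. Shank1 and Nlgn2 fell, and the NMDA receptor subunit Grin1 rose, at 41.1, 183 and 33.5 (4.45-fold higher, 3.27 to 6.16). Pax6, a regulator of neural fate, stood at 29.8, 6.62 and 38.5 and was the member of the neuroectoderm list that passed, of 10 tested.

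Transcripts of the imprinted Dlk1-Dio3 region, where long noncoding RNAs come from the maternal chromosome, were among those lower in shCtbp2_UT, with 4 of 7 tested at least 2-fold lower, 2 of which fell (median -1.07). Meg3 (ENSMUSG00000021268, mm9 chromosome 12, 110779211 to 110809936) stood at 480.0, 81.9 and 262, Rian (ENSMUSG00000091793, 110842155 to 110899919) at 628, 114 and 380.0, and Mirg at 45.9, 16.5 and 24.3. In all of them shRxr_UT lay between the other libraries, so the untreated lines without the Ctbp2 hairpin also differed. Meg3 was 5.86-fold lower (4.73 to 7.33) and fell by 1.99 (SE 0.32, adjusted p 0.027), and Rian was 5.50-fold lower (4.59 to 6.64) and fell by 2.01 (SE 0.27, adjusted p 0.018). In the alternative fits their adjusted p ran from 0.0091 to 0.069 and from 0.0093 to 0.059. Mirg did not pass (adjusted p 0.306). Of the protein-coding genes of the region, Begain stood at 23.4, 5.79 and 26.8 (4.03-fold lower, 1.73 to 10.9) without passing, and Rtl1, below the minimum level and not tested, at 12.9, 0.83 and 10.04. Dlk1 was at 15.3, 14.9 and 28.5, Dio3 at 19.3, 43 and 25.9 and Wdr25 at 98.3, 83.5 and 93.7, none of which passed. Outside this region 3 of 24 imprinted genes were at least 2-fold lower, against 2.34% of all genes, and none higher. Of the 24, 19 lay below 0, against 55.2% of all genes (median -0.23). Plagl1, a zinc finger factor, stood at 77.3, 16.5 and 91.2 and fell. Igf2r, at 1991, 1381 and 2015, fell by less than 2-fold, and Igf2, the growth factor it clears, stood at 51.6, 19.9 and 56.9 without passing (adjusted p 0.052).

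In FGF signalling 15 of 20 genes lay below 0, against 55.2% of all genes, with a median of -0.48, and 3 were at least 2-fold lower and none higher. Fgf17, a ligand of the Fgf8 subfamily (ENSMUSG00000022101, mm9 chromosome 14, 71036012 to 71042075), stood at 91, 7.44 and 56.9 (12.2-fold lower, 6.22 to 27.4) and fell (adjusted p 0.018, and up to 0.312 in the alternative fits). Fgf4, the ligand of stem cells, was at 2893, 3448 and 3375.5, and did not pass. Of receptors and feedback genes, Fgfr1 (1264, 899 and 1420.3), the Ets factor Etv4 (572, 328 and 614) and the ERK phosphatase Dusp6 (760, 498 and 743) fell by less than 2-fold. Fgfr2 (84.6, 33.1 and 62.8) was at least 2-fold lower without passing. Its deposited interval (chromosome 7, 137305965 to 140315033) overlaps that of Ctbp2 (140179246 to 140316037). The counting mode and strand setting were not stated, so reads in the overlap cannot be told apart. Spry4, an inhibitor, was at 2583, 1850 and 1678, low in both hairpin lines other than the control. In the Wnt list Sfrp5, a secreted antagonist (41.9, 12.4 and 47.7), Tcf7 and Ccnd1 fell, and none of 26 rose (median -0.14), while Sfrp2, among the 15 lowest genes of the comparison, stood at 323, 93.5 and 372. Of 32 genes of the BMP and nodal pathways, Lefty2, a nodal inhibitor, rose (563, 1017 and 476) and Smad1 fell.

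Of the cell cycle genes, the D-type cyclins Ccnd1 (2145, 1104 and 2572) and Ccnd2 (547, 207 and 557) fell, and the third, Ccnd3, had a log2 difference of 0.17. No other of 32 genes passed, including Mki67 (0.11) and Cdkn1a (-0.16), and the median was -0.08. Of 24 p53 targets and Bcl2 family genes, 19 lay below 0, against 55.2% of all genes (median -0.29), and Perp, Bcl2l11 and Zmat3 fell. Among subunits of the chromatin complexes NuRD and PRC2, Chd3, a NuRD remodeller, stood at 415, 142 and 520 (2.91-fold lower, 2.45 to 3.49) and fell, as did Mtf2, and none of 22 rose. Partners of CtBP other than Ctbp2 itself did not pass in any of the other 20 members tested: Kdm1a was at 1302, 1279 and 1471, Hdac1 at 409, 440.0 and 398 and Zeb1 at 227, 229 and 325. Tcf15, a bHLH factor of stem cells and somites, stood at 601, 171 and 644 (3.51-fold lower, 3.0 to 4.11), and Obsl1, a cytoskeletal adaptor, at 415, 117 and 634. They fell, and shCtbp2_UT was well below both other libraries in each.

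In the pluripotency list of 30 genes the median was 0.01, 1 was at least 2-fold higher and 1 lower, and Lefty2 alone passed. Lefty1, its paralog, was the higher one, at 101, 228 and 128 (2.27-fold, 1.83 to 2.82), and just missed the threshold (adjusted p 0.0502). Pou5f1 stood at 18172, 18524 and 18536, Nanog at 6748, 7231 and 8245, and Sox2 at 4845, 4616 and 4316. The lower one, Dppa3, a germ line and stem cell gene, was 2.82-fold lower without passing (46.7, 16.5 and 29.3), and Lin28a, at 3805, 2323 and 2768, was low in both hairpin lines other than the control. None of 12 primitive endoderm regulators passed, and Gata6 was at 29.8, 11.6 and 27.6. In the parietal endoderm list Col4a1 and Nid1 (1387, 2706 and 1693) rose by less than 2-fold, and Lamb1, a laminin chain of the same basement membrane, fell (1003, 380.5 and 716; 2.63-fold lower, 2.37 to 2.94). In bulk RNA, fewer cells of a type and less RNA per cell cannot be told apart.

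Genes of the RA pathway were 2-fold apart about as often as all genes (3.73%), with 1 among the receptors and targets. Of 5 RA and retinoid X receptor genes none passed or was 2-fold different: Rarg stood at 2791, 2285 and 3766, Rara at 1091, 862 and 1162, and Rxra at 520.3 in shGFP_UT and 372 in shCtbp2_UT. Rxra was at 73.7 in shRxr_UT, a library that enters the limma fit. Of 22 direct RA targets and genes of retinoid metabolism, only Crabp1, a cytosolic RA-binding protein, was at least 2-fold different and passed, on the low side (46.7, 16.5 and 54.4), and the median was 0.00. Crabp2 was at 14.5, 38 and 14.2 without passing. Of 20 nuclear receptor coregulators none passed, and their log2 differences ran from -0.21 (Ep300 and Crebbp) to 0.15 (Ncoa1).

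**Figure D3:**
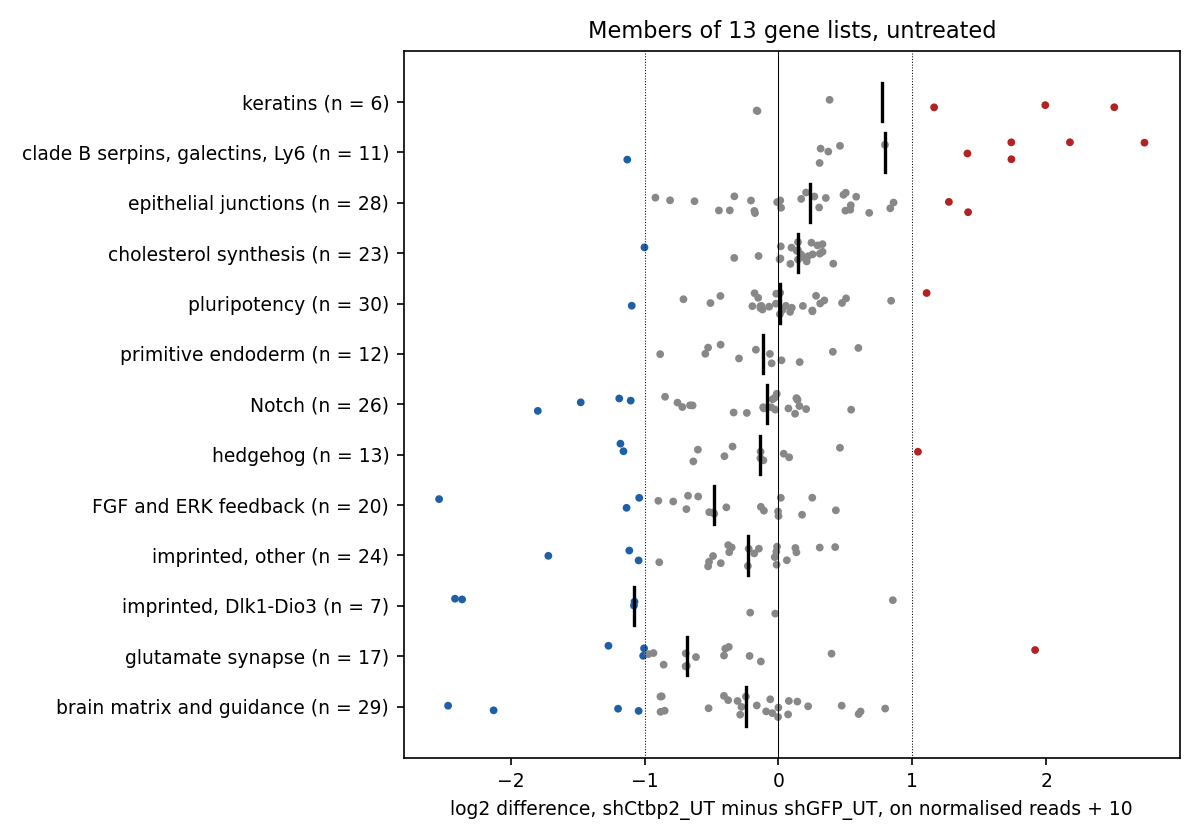
Log2 difference between shCtbp2_UT and shGFP_UT (x axis, on normalised reads plus 10) for each tested member of 13 gene lists, 1 point per gene, with the list's median as a black bar and members at least 2-fold apart in red (higher) or blue (lower). Keratins and the serpin, galectin and Ly6 list have the highest medians, 0.77 and 0.80, and the Dlk1-Dio3 list has the lowest median, -1.07.

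The same pair of lines in RA (shCtbp2_RA and shGFP_RA) shares no library with the untreated pair, and the genes named above can be read there too. There 392 genes (3.18%) reached 2-fold on the high side and 1831 (14.8%) on the low side. Libraries shCtbp2_RA and shGFP_RA also stood apart in composition. Across genes, a library's deviation from the gene's mean had a Spearman correlation with GC content of 0.65 in shCtbp2_RA and 0.25 in shGFP_RA. It was -0.44 to -0.40 in the untreated libraries and -0.42 in shRxr_RA. The part of this in the RA difference was not tested. The untreated log2 difference had a correlation of -0.00 with GC content and -0.08 with length. Of the 172 genes higher untreated, 71 (41.3%) were also at least 2-fold higher in RA, which is 18.1% of those higher in RA. Of the 288 lower untreated, 155 (53.8%) were also lower in RA, or 8.47% of those lower in RA. The median RA log2 difference was 0.69 for the untreated higher genes and -1.09 for the untreated lower genes, against -0.19 over all genes.

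Gene by gene the untreated and RA values are given side by side. Atp2a3 stood at 214 in shGFP_RA and 1465 in shCtbp2_RA, a 6.85-fold difference (6.03 to 7.80) like that without RA. Krt17 stood at 18.8 and 261 (13.9-fold higher, 9.23 to 21.9) and Lgals3 at 30.8 and 378 (12.3-fold, 8.89 to 17.4), and both genes had lower levels in RA than untreated in either line. Krt8, at 922 and 2408, was 2.61-fold higher (2.44 to 2.80), less than the 5.84-fold without RA. Notch3, at 748 and 202, had a ratio like that without RA (3.71-fold lower, 3.19 to 4.33). Meg3, at 349 and 40.6, was 8.60-fold lower (6.24 to 12.1), and Rian stood at 731 and 84.1. Other genes that were far apart untreated lay close in RA. Obsl1 stood at 2403 and 2278, Tcf15 at 775 and 675, Smo at 1578 and 1311 and Lgals1 at 1657 and 1658. Dsp was higher untreated and lower in RA, at 1636 and 882. Evc (285 and 117) and Evc2 (320 and 175) were lower in both, by 2.44-fold and 1.83-fold in RA. A limma fit over all 6 libraries with line, treatment and a term for the shCtbp2 line in RA was added after the data were seen. It set the change of the shCtbp2 line with RA against the average change of the shGFP and shRxr lines. The fit therefore does not decide whether the difference from shGFP alone changed with treatment. It has 1 residual degree of freedom, the difference between the shGFP and shRxr lines in their change with RA. No gene passed in either direction (0% each), the lowest adjusted p was 0.159, and 2854 genes had an unadjusted p under 0.05.

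**Figure D4:**
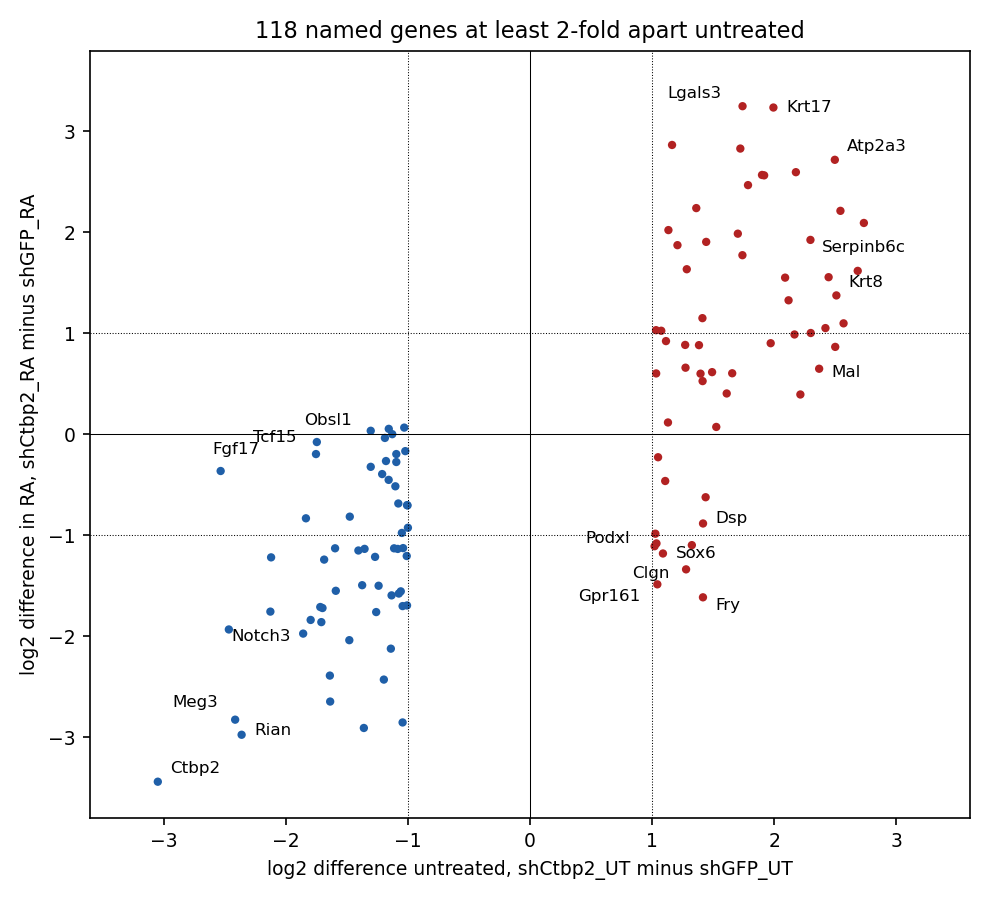
Log2 difference between the shCtbp2 and shGFP lines untreated (x axis) and in RA (y axis), on normalised reads plus 10, for the 118 named genes at least 2-fold apart untreated, red for higher and blue for lower, with dotted lines at 2-fold. Krt17, Lgals3 and Atp2a3 lie at the upper right and Ctbp2, Meg3 and Rian at the lower left, Obsl1, Tcf15 and Fgf17 lie near 0 in RA, and Fry, Clgn and Gpr161 lie below the lower line in RA.

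Some neighbouring genes differed the same way. Of 9564 pairs of tested genes next to each other within 100 kb, 12 had both members at least 2-fold higher and 9 had both lower. Singly, 1.39% of all genes were higher and 2.34% lower. Whether such pairs were more or fewer than unlinked genes would give was not tested. Other higher pairs were Klk11 and Klk10, kallikrein proteases (47.5, 177 and 29.3, and 118, 337 and 87.9), Slc13a5 and Xaf1, Nin and Pygl, Afap1l2 and Ablim1, Jakmip1 and Crmp1, A930004D18Rik and 2810030E01Rik, and Vax2 with Vax2os2. The last pair overlaps, and without a stated strand its reads cannot be told apart. The lower pairs not yet given were Chd3 and A030009H04Rik, Fzd2 with Gm11627 on one side and Gm1564 on the other, Slc22a17 and Efs, and Mesp2 and Anpep. By chromosome the median difference ran from -0.12 (chromosome 14, 412 genes) to 0.00 (chromosome 1, 671 genes). On chromosome 13, that of Serpinb6c, Dmgdh and Bhmt2, 9 of 435 genes (2.07%) reached 2-fold on the high side and 2 (0.46%) on the low side. Over all genes the shares were 1.39% and 2.34%. The high-side share was larger on chromosome 15 (2.49%), and the low-side share on chromosome 16 was similar (0.52%).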

How the data were processed

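RNA of mouse F9 cells was sequenced in 6 libraries, 1 per group (3 hairpin lines, untreated or in RA), and grouped by their titles. TopHat 1.4, HTSeq and the build mm9 were used, per the submitters' processing notes; the counting mode, strand setting, annotation release and HTSeq version were not stated in those notes. The authors deposited log2 values of reads per 10000000 counted in genes, plus 1, as read from the values. They were unlogged, and 100% of values were whole multiples, within 0.001, of what 1 read is worth. Gene symbols that had become dates (25) were restored by identifier. All columns matched a library.

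Differences were taken on log2(value + 10) for genes averaging at least 20 in the 6 libraries and called at 2-fold; a count of 3 reads, the most that 0 reads allows, is 2.42 normalised reads in shGFP_UT and 2.48 in shCtbp2_UT. With limma 3.58.1 under R 4.3.3, a trend model set shCtbp2_UT against shGFP_UT and shRxr_UT, with Benjamini-Hochberg adjustment and a threshold of 0.05, and was tested on simulated data. Intervals came from scipy 1.17.1, tables from pandas 2.3.3 and numpy 2.4.6, and figures from matplotlib 3.10.9, under Python 3.11.15. The comparison, its marker genes and the 39 gene lists were chosen with earlier results of these data known, so no list is independent evidence, and 15 listed symbols had no match.

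Named by rule were Ctbp2, Ctbp1, Atp2a3, Krt8, Meg3 and Notch3, the 15 highest and 15 lowest genes averaging at least 50 in the compared libraries, list members at least 2-fold apart (otherwise up to 4 with the largest difference), up to 10 limma calls in each direction with the lowest p, adjacent pairs within 100 kb, and genes at least 2-fold apart in opposite directions untreated and in RA. Of the 15 highest, 2 are not reported here. Others were looked up after values were seen. Alternatives were other pseudocounts, minimum levels and scalings, a correction for GC content and length, voom on the recovered reads and a fit over all 6 libraries; the test of the difference between treatments was added after the data were seen. Promoter letters are from RefSeq's GRCm38.p6 table; positions of genes are mm9, as in the deposited table.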

Additional observations from a re-analysis of the deposited data

Results flagged for a closer look

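Of the 172 genes at least 2-fold higher in the shCtbp2 line untreated, 7 were at least 2-fold lower in RA, against 14.8% of all genes. Of the 288 lower untreated, none was at least 2-fold higher in RA, against 3.18% of all genes. Neither share was above that of all genes. The 7 genes are given here. The limma test of the difference between treatments called none of them, with adjusted p from 0.159 to 0.209. Fry, which encodes a large scaffold protein, had 52.4 normalised reads in shGFP_UT against 156 in shCtbp2_UT, but 136 in shGFP_RA and 37.6 in shCtbp2_RA, log2 differences of 1.42 and -1.62. Clgn, a testis-type chaperone of the endoplasmic reticulum, stood at 234 and 582 untreated and at 1609 and 631 in RA, differences of 1.28 and -1.34. Zdhhc2, a palmitoyltransferase, differed by 1.32 and -1.10, and Sox6, a Sox-family factor, by 1.09 and -1.18. Gpr161, the ciliary receptor named with the hedgehog genes, differed by 1.04 and -1.49, Podxl, a sialomucin of apical membranes, by 1.03 and -1.08, and Mblac2 by 1.02 and -1.11. For all 7 the RA values come from the libraries whose GC composition stood apart, and its part in them was not tested. The limma test set the shCtbp2 line against the average of the shGFP and shRxr lines, whereas the differences given here are against shGFP alone.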

How the results depend on the processing

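No paired analysis was possible because each group has 1 library, so no replicate numbers pair libraries; treatment is a term in the fit over all 6 libraries. The counts of genes at least 2-fold higher and lower (172 and 288) moved most with the pseudocount: a pseudocount of 1 gave 257 and 532 and one of 50 gave 68 and 45, which turned the share of higher genes among the calls from 37.4% to 60.2%. A minimum mean of 100 gave 81 and 132, with fewer genes compared. Both counts stayed within 1.5 times for the other filters and scalings, the correction for GC content and length, and the added demand on the counting interval. The limma counts (250 raised and 293 lowered) were 153 and 163 with a minimum mean of 100, 61 and 64 when upper quartiles were made equal, 99 and 88 under median-of-ratios scaling, 417 and 476 with the correction for GC content and length, 13 and 5 over all 6 libraries, and 0 and 0 without a minimum level, where 3700 genes had an unadjusted p under 0.05 (2515 with the minimum). The cause was not tested beyond the number of genes or libraries that each setting leaves. In the fit over all 6 libraries Ctbp2, Rian, Meg3, Tro and Mtap7d2 were lowered, and Krt17, Atp2a3, Lgals3, Serpinb6c, Ly6a, Dmgdh, Ckmt1, Cyp2s1, Grin1, Myl7, Capn5, Gpx2 and Bhmt2 raised. Of 118 named genes at least 2-fold apart, none reversed in 885 alternative values and 65 dropped below 2-fold, 53 of these with a pseudocount of 50. Of 312 medians of lists, 29 moved by more than 0.1.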

Other observations

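Gene families were looked up after the values were seen and are a description. Annexins, calcium-dependent proteins that bind membrane lipids, all lay above 0: 4 of 7 tested were at least 2-fold higher and rose, with a median log2 difference of 1.16 against -0.03 over all genes. Anxa5 stood at 81.3, 506 and 114 normalised reads in shGFP_UT, shCtbp2_UT and shRxr_UT, Anxa2 at 103, 369.7 and 50.2, Anxa6 at 776, 1821 and 886, and Anxa7 at 656, 1475 and 572. Anxa11, at 706, 731 and 584, did not pass. S100a10, the S100 protein that binds Anxa2, stood at 445, 1018 and 382 and rose, as did S100a11 (278, 513 and 238), while S100a6 (71.7, 69.5 and 47.7) did not pass. Of 16 V-ATPase subunits only Atp6v0a4 passed. Among 24 genes of cilia (Evc, Ift, Bbs and Dzip1 families) Evc, Evc2 and Dzip1l (114, 30.6 and 132) fell and none rose, and the median was -0.08.

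Of 2574 genes with a mean of at least 1000 normalised reads over shGFP_UT and shCtbp2_UT, 9 were at least 2-fold higher (Krt8, Lgals3, Cyp2s1, Dsp, Anxa6, Anxa7, Hk1, Vim and Tagln2) and 2 lower (Ctbp2 and Nrp2). Over all genes 1.39% were higher and 2.34% lower, so these abundant genes were called less often. Cyp2s1, a cytochrome P450 of epithelia, stood at 528, 1649 and 299.6 and rose.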
